A study of Mus musculus and Homo sapiens with 14 samples.

Results

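T cell receptor segment genes are the building blocks from which each T cell assembles its antigen receptor. The set described here holds every symbol of the 2 mouse expression tables that is a variable (V), diversity (D), joining (J) or constant (C) gene of the alpha (Trav, Traj, Trac), beta (Trbv, Trbd, Trbj, Trbc), gamma (Trgv, Trgj, Trgc) or delta (Trdv, Trdd, Trdj, Trdc) chain. Both tables list the same 270 members, among 50559 entries in the EL4 table and 55969 entries in the EG7 table. Members with 10 or more reads in total numbered 11 in the EL4 table and 101 in the EG7 table, and these are described. The series profiled RNA from 14 libraries, of which 10 come from mouse. EL4 is a T cell lymphoma line of the mouse, and its tumours were sampled as P3 (n = 2) and as P0 (n = 2), both labelled wild type; the labels do not say what P3 and P0 mark. EG7-OVA cells, an EL4 derivative that carries an ovalbumin transgene, were grown in culture and treated with azacytidine at 1.5 µM (n = 2), decitabine at 0.2 µM (n = 2) or DMSO, the solvent (n = 2). They were last dosed at 48 h and harvested at 72 h, and all are labelled wild type. Human NKYS lymphoma libraries were not used here. The labels do not say whether replicates came from separate cultures or animals, so p-values measure the spread between these libraries, which may be technical.

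In a developing T cell, DNA recombination joins 1 V gene to a J segment (through a D segment in the beta and delta chains), and splicing then links the joined exon to the constant gene. A lymphoma descends from 1 cell, so its rearranged V and J segments act as a clonal label. Unrearranged V genes usually stay silent, while germline transcription can read J segments that still lie between the rearranged V and the constant gene. Azacytidine and decitabine are cytidine analogues that are built into nucleic acid and deplete DNA methyltransferases.

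Total counts ran between 15690747 and 25328708 reads per mouse library. In EG7-OVA cells 1 of the 2 DMSO libraries, named CTRL2 in the table, stood apart in the T cell receptor genes. There, 35 members had more reads in CTRL2 than in the other 5 libraries together (at least 5 reads in it), against 1 member in decitabine replicate 1 and 0 members in each of the other 4 libraries. Over all genes, 7 had 30 or more reads in CTRL2 and at most 3 reads in the other 5 libraries together, and 2 of these 7 had at least 100 reads in every EL4 tumour library. The same count was 1 gene in decitabine replicate 1 and 0 genes in the other 4 libraries. The 7 genes of CTRL2 are in part the same loci as the members. They include Trgv4, a member that is also 1 of the 2 well read in EL4, and 5830405F06Rik, which overlaps listed Trbv genes. Another of the 7 is an immunoglobulin segment, Ighv1-66. Immunoglobulin segments with a read numbered 28 and 21 of 380 with azacytidine, 50 and 26 with decitabine, and 15 in CTRL1 and 79 in CTRL2. Their summed level, in the CPM defined below, was 27.8 and 14.3 with azacytidine, 41.8 and 15.8 with decitabine, and 5.03 in CTRL1 and 35.3 in CTRL2, so CTRL2 held the most segments but not the highest level. The part of CTRL2 in the drug comparisons was measured by leaving it out.

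The sequences shown first are the germline V exons of the 3 dominant V genes of EG7-OVA cells, since these hold most reads of their class. They come from GENCODE vM21 on mm10, 5′ to 3′ on the gene's strand. Capitals mark TANNNNTGN, the codons around the conserved cysteine at the end of the V region, searched on the gene's strand in the last 30 bases. This motif was present in 142 of 144 V genes with a coding sequence, 98.6%. Trav13n-4 lies at chr14:53363828-53364106 on the plus strand, Trbv15 at chr6:41141361-41141658 on the plus strand and Trgv2 at chr13:19336573-19336872 on the minus strand, without its first bases.
Trav13n-4: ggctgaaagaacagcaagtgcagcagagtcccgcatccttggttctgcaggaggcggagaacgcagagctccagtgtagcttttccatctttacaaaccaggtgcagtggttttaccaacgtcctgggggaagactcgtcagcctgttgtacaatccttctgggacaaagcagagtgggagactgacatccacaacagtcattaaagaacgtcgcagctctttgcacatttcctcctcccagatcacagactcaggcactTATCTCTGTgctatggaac
Trbv15: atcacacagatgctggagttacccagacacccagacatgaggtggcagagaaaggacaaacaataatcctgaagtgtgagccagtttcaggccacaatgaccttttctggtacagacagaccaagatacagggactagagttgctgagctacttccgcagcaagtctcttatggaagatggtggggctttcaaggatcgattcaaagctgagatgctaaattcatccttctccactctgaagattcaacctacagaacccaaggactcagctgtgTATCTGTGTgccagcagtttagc
Trgv2: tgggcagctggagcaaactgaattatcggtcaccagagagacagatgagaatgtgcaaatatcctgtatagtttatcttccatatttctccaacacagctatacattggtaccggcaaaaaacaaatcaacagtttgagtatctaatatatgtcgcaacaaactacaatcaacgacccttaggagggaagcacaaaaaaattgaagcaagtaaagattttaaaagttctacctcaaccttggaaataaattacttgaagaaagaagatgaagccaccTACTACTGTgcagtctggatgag

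In the alpha chain, 68 of 191 members reached 10 reads in the EG7 table, and all 6 libraries shared 1 dominant V gene. Trac, the only alpha constant gene, had 1841 and 2077 reads in azacytidine libraries, 2654 and 2300 reads in decitabine libraries, and 1705 and 2000 reads in the CTRL1 and CTRL2 DMSO libraries. The drug libraries did not overlap the DMSO libraries after scaling by library size, but neither difference passed the test. In TMM-normalised CPM, counts scaled to a common library size, Trac averaged 122 ± 2.48 with azacytidine and 92.7 ± 9.88 with DMSO (SD, n = 2 each), a log2 fold change of 0.40 (95% interval 0.04 to 0.75, edgeR quasi-likelihood adjusted p = 0.111). It averaged 130 ± 6.80 with decitabine (SD, n = 2), a log2 fold change of 0.49 against DMSO (95% interval 0.14 to 0.85, adjusted p = 0.0614).

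Trav13n-4, whose V exon is printed above, had 697 and 641 reads with azacytidine, 789 and 773 reads with decitabine, and 585 and 618 reads with DMSO. It held 92.0% (95% Wilson interval 89.8 to 93.7) and 87.7% (85.1 to 89.9) of all Trav reads in the azacytidine libraries. The share was 78.8% (76.2 to 81.2) and 82.1% (79.5 to 84.4) in the decitabine libraries, and 70.4% (67.2 to 73.4) in CTRL1 and 56.9% (53.9 to 59.8) in CTRL2. The share was thus highest in both azacytidine libraries and lowest in both DMSO libraries, and these intervals cover counting error only. Against Trac, the constant gene of the same chain, Trav13n-4 had between 29.7 and 37.9 reads per 100 Trac reads in the 6 libraries, with no group apart from the others. Whether these reads share a transcript was not tested. Its own level gave a log2 fold change of 0.48 (adjusted p = 0.0917) with azacytidine and of 0.45 (adjusted p = 0.119) with decitabine, both against DMSO. Its nearest listed copy, Trav13d-1, was identical at 94.5% of 329 aligned coding bases, so some reads could be assigned to either.

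**Figure D1:**
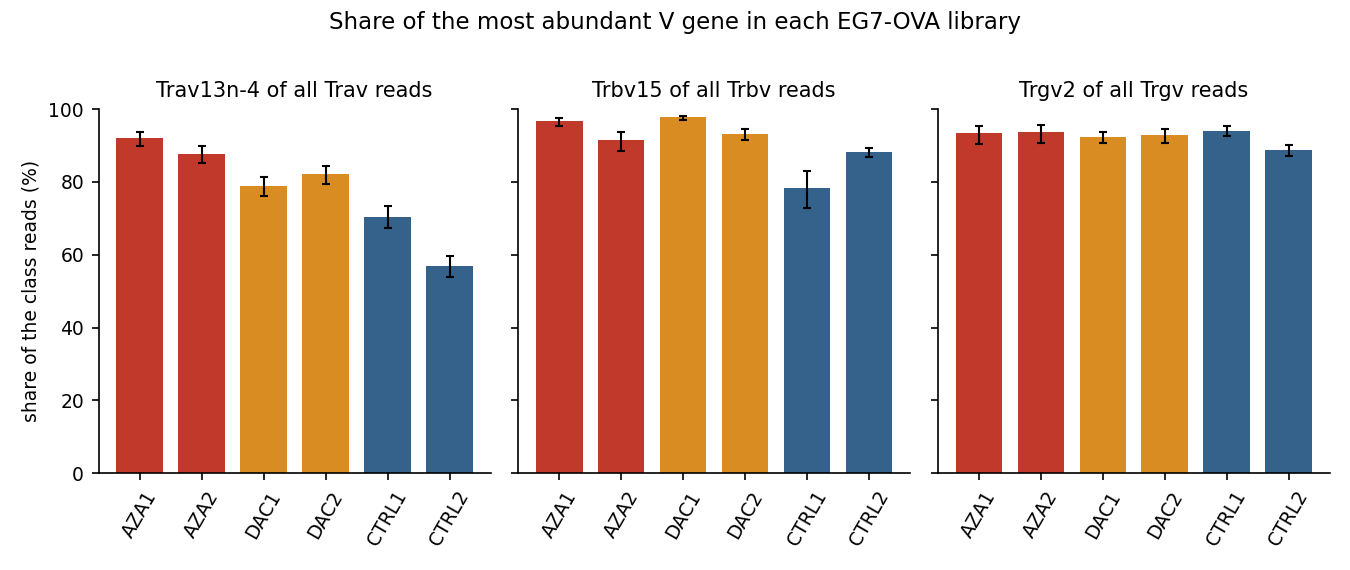
Share of reads of the V class held by its most abundant gene, in percent (bars start at 0), for the azacytidine (AZA), decitabine (DAC) and DMSO (CTRL) libraries of EG7-OVA cells; error bars are 95% Wilson intervals. Trav13n-4 holds 92.0% of Trav reads in AZA1 and 56.9% in CTRL2, while Trgv2 stays between 88.7% and 94.1% of Trgv reads.

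The other Trav genes summed to 61 and 90 reads with azacytidine, 212 and 169 reads with decitabine, and 246 and 469 reads with DMSO. Trav16n and Trav8n-2 led them, and both lie a short distance upstream of Trav13n-4 (gaps of 10.6 kb and 15.8 kb). Trav16n had 11 and 20 reads with azacytidine, 54 and 38 reads with decitabine, and 89 and 82 reads with DMSO. Trav8n-2 had 14 and 24 reads with azacytidine, 44 and 43 reads with decitabine, and 71 and 90 reads with DMSO. In both genes the 3 groups did not overlap, with azacytidine lowest, decitabine between and DMSO highest. Trav17, Trav18 and Trav19 lie far downstream, 413 kb, 389 kb and 375 kb before Trac. Trav18 had 0 and 1 reads with azacytidine, 11 and 12 reads with decitabine, and 16 and 32 reads with DMSO. Of the 130 Trav genes listed, 19 reached 10 reads, 45 had 1 to 9 reads and 66 had none. Members just above the threshold, with 10 reads, were Traj49, Trav13-4-dv7, Trav16d-dv11, Trbv1 and Trbv19, and just below it Trbv29 had 9 reads. Trav16n is identical to Trav16 at 98.6% of 350 coding bases and Trav7n-6 to Trav7d-6 at 100%, so counts of such copies are uncertain.

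Among the J segments of the alpha chain the reads rose abruptly at Traj45. The 12 segments numbered 50 to 61, farthest from Trac, had 0 reads in all 6 libraries, which allows up to 3 reads each per library. Traj46 to Traj49 had 83 reads in all, of which 44 came from CTRL2. Traj48 held 38 of the 83, against 22, 13 and 10 reads for Traj46, Traj47 and Traj49. In the azacytidine libraries Traj48 held all 4 and all 8 reads of this block. In the decitabine libraries it held 7 of 13 and 9 of 11 reads. Traj45, 0.43 kb from Traj46 on the Trac side, had 22 and 39 reads with azacytidine, 46 and 46 reads with decitabine, and 37 and 81 reads with DMSO, against 0 and 0, 2 and 1, and 1 and 18 reads of Traj46 in the same libraries. The step thus stood in every library. The 2 segments on the Trac side of the step and the 2 on the other side are printed for this reason, with the codons of the Phe-Gly-X-Gly motif of J segments in capitals. The motif was searched on the gene's strand and was present in 55 of 70 J segments with a coding sequence, 78.6%. Traj45, Traj46 and Traj47 hold it, and Traj44 has no match to it. They lie on the plus strand of mm10 at chr14:54173690-54173750 (Traj44), chr14:54172828-54172890 (Traj45), chr14:54172336-54172398 (Traj46) and chr14:54171800-54171856 (Traj47).
Traj44: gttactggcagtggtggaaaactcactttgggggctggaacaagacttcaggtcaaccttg
Traj45: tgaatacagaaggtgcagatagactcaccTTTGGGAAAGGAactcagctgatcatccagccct
Traj46: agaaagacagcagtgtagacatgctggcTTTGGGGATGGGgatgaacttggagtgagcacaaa
Traj47: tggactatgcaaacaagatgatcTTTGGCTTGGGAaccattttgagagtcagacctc

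All 44 segments listed from Traj1 to Traj45 had between 44 and 384 reads over the 6 libraries. Traj44 had the most, with 46 and 64 reads in azacytidine libraries, 67 and 69 reads in decitabine libraries, and 42 and 96 reads in DMSO libraries. Traj42 and Traj38 came next, with 334 and 294 reads over the 6 libraries. The median over the 6 libraries together was 217 reads a segment for Traj31 to Traj45, 123 reads for Traj16 to Traj30 and 88 reads for Traj1 to Traj15. Across the 44 segments, mean CPM and distance from Trac had a Spearman rho of 0.74, a description only, since neighbouring segments share libraries and may share transcripts. Summed over Traj1 to Traj45, the level was 45.7 and 56.7 CPM with azacytidine, 68.7 and 50.8 CPM with decitabine, and 38.8 CPM in CTRL1 and 103 CPM in CTRL2. The DMSO libraries enclosed all 4 drug libraries. Of 43 Traj segments that passed the filter on low counts, 0 were called in either drug comparison.

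**Figure D2:**
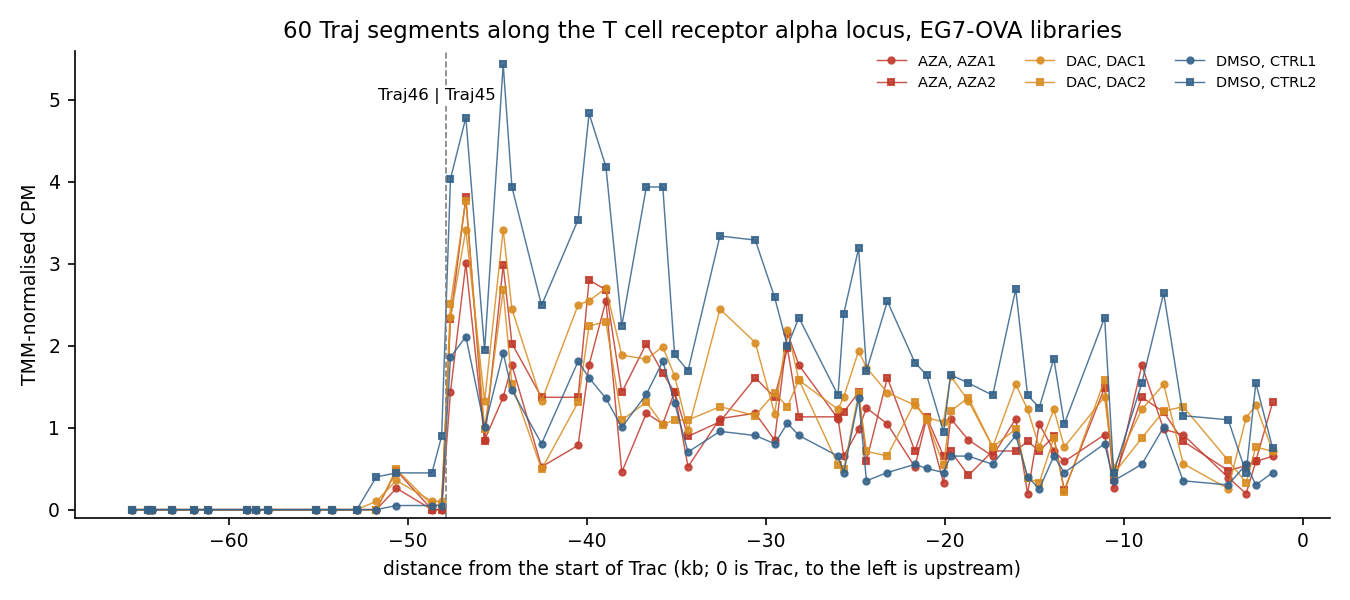
Level of the 60 listed Traj segments in TMM-normalised CPM (vertical axis) by distance from the start of Trac in kb (horizontal axis, upstream to the left) in azacytidine, decitabine and DMSO libraries of EG7-OVA cells; each line is 1 library. Segments left of the dashed line, between Traj46 and Traj45, lie at or near 0, and CTRL2 (blue squares) lies highest at most of the others.

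In the beta chain, 25 of 53 members reached 10 reads, and the level differed more between libraries of 1 group than between groups. Trbv15 was the dominant V gene in all 6 libraries. It had 1047 and 411 reads in azacytidine libraries, 2552 and 953 reads in decitabine libraries, and 192 reads in CTRL1 and 2267 reads in CTRL2. Trbc2, the constant gene of the second D-J-C cluster, had 1548 and 460 reads with azacytidine, 2293 and 1144 reads with decitabine, and 160 reads in CTRL1 and 2670 reads in CTRL2. For both genes CTRL1 was the lowest library of the 6. Scaled for depth, CTRL2 exceeded CTRL1 11.7-fold in Trbv15 and 16.5-fold in Trbc2, while Trac differed 1.16-fold between them. Cd4, the coreceptor gene, differed in the same direction, with 37 reads in CTRL1 and 832 reads in CTRL2. Other T cell genes did not all do so. In CPM, Cd3d, Cd3e and Cd3g stood at 214, 167 and 113 in CTRL1 and at 232, 150 and 105 in CTRL2, and Cd247 at 1.26 and 4.29.

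Trbc2 averaged 64.3 ± 52.1 CPM with azacytidine and 70.6 ± 88.4 CPM with DMSO (SD, n = 2 each), a log2 fold change of -0.14 (95% interval -2.18 to 1.90, adjusted p = 0.940). It averaged 89.7 ± 38.5 CPM with decitabine (SD, n = 2), a log2 fold change of 0.35 against DMSO (95% interval -1.69 to 2.38, adjusted p = 0.847). Trbv15 gave a log2 fold change of -0.40 with azacytidine (adjusted p = 0.787) and of 0.57 with decitabine (adjusted p = 0.710) against DMSO. All these values rest on 2 DMSO libraries that lay far apart. For Trbc2, CTRL1 stood at 8.04 CPM, below every drug library, and CTRL2 at 133 CPM, above every drug library. The sign for Trbc2 therefore depends on which DMSO library is kept. Without CTRL2, CTRL1 is the lone DMSO library and is assumed to vary like the other groups. Azacytidine then gave a log2 fold change of 2.95 for Trbc2, of 2.22 for Trbv15 and of 5.80 for Trbc1. Decitabine gave 3.44 for Trbc2, 3.20 for Trbv15 and 5.42 for Trbc1 in the same setting. With 1 library left these are no replicated results.

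Trbv15 and Trbc2 kept near-equal read numbers, between 67.6 and 120 Trbv15 reads per 100 Trbc2 reads. Trbv15 held 96.7% and 91.5% of Trbv reads with azacytidine, 97.7% and 93.2% with decitabine, and 78.4% in CTRL1 and 88.2% in CTRL2. The other 34 Trbv genes summed to 36 and 38 reads with azacytidine, 60 and 69 reads with decitabine, and 53 reads in CTRL1 and 304 reads in CTRL2. Trbv13-2 and Trbv12-2 led them, at 111 and 52 reads in CTRL2 and at 26 reads or fewer in each other library. Trbv31, the only Trbv gene downstream of Trbc2 and on the opposite strand, had 3 and 3 reads with azacytidine, 8 and 10 reads with decitabine, and 10 and 12 reads with DMSO.

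Trbc1, the constant gene of the first D-J-C cluster, had 89 and 13 reads with azacytidine, 64 and 32 reads with decitabine, and 1 read in CTRL1 and 603 reads in CTRL2. Per 100 Trbc2 reads this came to 22.6 Trbc1 reads in CTRL2 and to at most 5.75 Trbc1 reads in the other 5 libraries. Its log2 fold change against DMSO was -2.20 with azacytidine (adjusted p = 0.331) and -2.58 with decitabine (adjusted p = 0.281), and CTRL2 holds nearly all of its DMSO reads. The 7 Trbj1 segments, which precede Trbc1, summed to 6 and 0 reads with azacytidine, 3 and 7 reads with decitabine, and 1 read in CTRL1 and 65 reads in CTRL2. The 7 Trbj2 segments summed to 30 and 9 reads with azacytidine, 26 and 14 reads with decitabine, and 5 reads in CTRL1 and 117 reads in CTRL2. Trbj2-7, Trbj1-6 and Trbj2-4 were the most abundant over the 6 libraries, with 59, 46 and 41 reads, of which CTRL2 held 28, 36 and 22, and no Trbj segment stood above the others in every library. Trbd1 had 11 reads, of which 8 were in CTRL2. The first exons of Trbc1 and Trbc2, 375 bases each, differ at 1 base, so reads there can hardly be split between them. The stretch around that base, in capitals, shows how close the copies are (mm10, plus strand, chr6:41538447-41538507 and chr6:41546959-41547019).
Trbc1: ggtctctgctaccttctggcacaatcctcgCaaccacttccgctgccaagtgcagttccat
Trbc2: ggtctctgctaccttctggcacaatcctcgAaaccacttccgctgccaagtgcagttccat

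**Figure D3:**
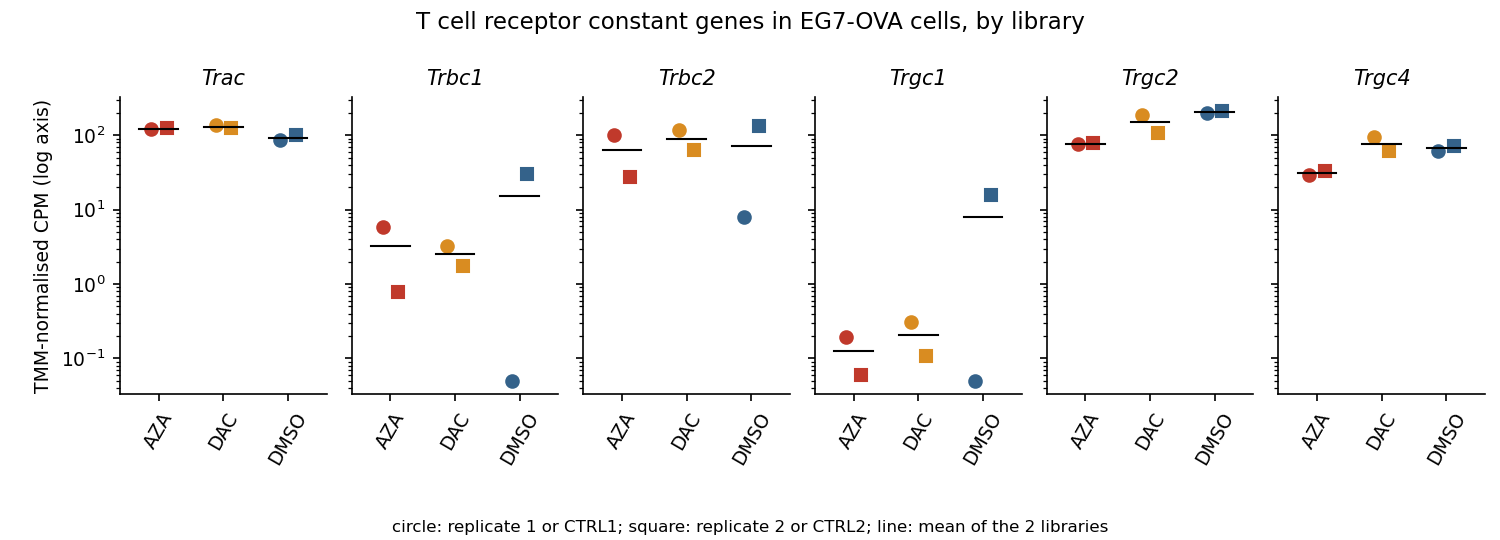
Level of 6 constant genes in EG7-OVA cells in TMM-normalised CPM on a log axis, for azacytidine (AZA), decitabine (DAC) and DMSO; points are libraries and lines are means of 2. Trac and Trgc2 sit close together within DMSO, while Trbc1, Trbc2 and Trgc1 are far higher in CTRL2 (blue square) than in CTRL1 (blue circle).

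The gamma locus had reads in both EL4 tumours and EG7-OVA cells. In EG7-OVA cells 4 of its 6 tested genes fell with azacytidine, where 6.70% of all tested genes were called lower and 20.3% in either direction. The locus holds 4 constant genes, and by position Trgv2, Trgj2 and Trgc2 form 1 group on the minus strand, Trgv1, Trgj4 and Trgc4 another, and Trgv4 to Trgv7, Trgj1 and Trgc1 a further one. Gamma chains pair with delta chains on gamma delta T cells, and out-of-frame gamma rearrangements are common in alpha beta T cells. Trgc3 had 5 reads in all, of which 4 were in CTRL2. Delta genes were nearly silent: Trdc and Trdv1 had 3 and 2 reads in all 6 EG7 libraries, and the other 9 delta members had none. Trgc2 had 1167 and 1300 reads with azacytidine, 3705 and 1976 reads with decitabine, and 3990 and 4286 reads with DMSO. Trgv2, printed above, followed with 337 and 364 reads with azacytidine, 1047 and 588 reads with decitabine, and 1248 and 1283 reads with DMSO. In both genes azacytidine libraries lay below all others and DMSO libraries above all others. Trgc4 had 444 and 558 reads with azacytidine, 1833 and 1115 reads with decitabine, and 1233 and 1446 reads with DMSO, so that only azacytidine lay apart. Trgv2 had between 28.0 and 31.3 reads per 100 Trgc2 reads in the 6 EG7-OVA libraries.

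The third gamma group marked CTRL2. Trgc1 had 3 and 1 reads with azacytidine, 6 and 2 reads with decitabine, and 1 read in CTRL1 and 316 reads in CTRL2. Trgv4 had 0 and 0 reads, 1 and 0 reads, and 0 and 42 reads in the same order of libraries. Both genes were well above these levels in the EL4 tumours, given below. Trgc1 and Trgc2 are identical at 97.4% of 500 aligned coding bases. Neither Trgc1 nor Trgv4 passed the filter on low counts in EG7-OVA cells, so they have no test.

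The J segments of the 2 abundant gamma groups differed in level. Trgj4 had 124 and 80 reads with azacytidine, 278 and 175 reads with decitabine, and 191 and 224 reads with DMSO, and Trgj2 had 8 and 19, 43 and 19, and 37 and 46 reads in those groups. Per kb of exon, Trgj4 averaged 105, 195 and 170 CPM with azacytidine, decitabine and DMSO, against 13.8, 26.9 and 34.6 CPM per kb for Trgj2. These segments are only 61 and 60 bases long, so their values per kb compare them with each other and not with longer genes. Both are printed to show the expressed J segments of the gamma chain, and neither has a match to the Phe-Gly-X-Gly codons searched above (mm10, Trgj2 chr13:19311245-19311304 on the minus strand, Trgj4 chr13:19342152-19342212 on the plus strand).
Trgj2: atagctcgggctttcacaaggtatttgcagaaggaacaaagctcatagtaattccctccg
Trgj4: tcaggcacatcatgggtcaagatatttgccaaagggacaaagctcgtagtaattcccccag

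Levels of the constant genes per kb of exon gave an order with azacytidine of Trac (131 CPM per kb), Trbc2 (92.9), Trgc2 (84.1), Trgc4 (31.6), Trbc1 (4.40) and Trgc1 (0.138). With decitabine it was Trgc2 (162 CPM per kb), Trac (140), Trbc2 (130), Trgc4 (78.4), Trbc1 (3.35) and Trgc1 (0.225). With DMSO it was Trgc2 (227 CPM per kb), Trbc2 (102), Trac (99.1), Trgc4 (68.0), Trbc1 (20.1) and Trgc1 (8.55). Trbc2 has no stable place in any of the 3 orders. It stood at 146 and 39.6 CPM per kb with azacytidine, above Trac in 1 library and below Trgc2 in the other, at 169 and 90.3 with decitabine, and at 11.6 in CTRL1 and 192 in CTRL2. Trgc2 and Trac also changed places between the decitabine libraries, at 207 and 118 CPM per kb for Trgc2 against 145 and 134 for Trac. The DMSO means of Trbc1 and Trgc1 rest on CTRL2, since CTRL1 alone gave 0.0671 CPM per kb for Trbc1 and 0.0544 for Trgc1.

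Azacytidine against DMSO was tested over all 19123 genes that passed the filter, of which 64 are members; 2 libraries a group limit its precision, and an exact permutation test of 2 against 2 cannot go below p = 0.333. Lower calls (edgeR, Benjamini-Hochberg adjusted p under 0.05) numbered 7 of 64 members, 10.9%, and higher calls 0 of 64, where 6.70% of all tested genes were called lower, 13.6% higher and 20.3% in either direction. The median log2 fold change over the 64 was -0.71, beside 0.03 over all genes tested, and 55 of 64 were below 0. The sign of that median rests on CTRL2. Without CTRL2 it was 0.26, with 24 of 65 members below 0, and the 43 Traj segments among them had a median of 0.32, against -0.61 with both DMSO libraries. The members other than Traj kept a median below 0 without CTRL2, at -0.74 with 13 of 22 below 0. With both DMSO libraries their median was -1.43, with 19 of 21 below 0. Groups did not overlap in 17 of 64 members, 26.6%, where the figure over all genes was 61.1%. The 7 were 4 gamma genes and 3 alpha V genes other than the dominant one. Members that passed the filter are the better-read ones and are not all 270.

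Trgc2 averaged 76.9 ± 0.872 CPM with azacytidine and 207 ± 9.22 CPM with DMSO (SD, n = 2 each), a log2 fold change of -1.43 (SE 0.24, adjusted p = 0.00268). Trgv2 averaged 21.9 ± 0.229 CPM with azacytidine and 63.3 ± 0.856 CPM with DMSO, a log2 fold change of -1.53 (SE 0.24, adjusted p = 0.00178). The genes of the neighbouring group fell as well: Trgc4 changed by -1.11 (SE 0.22, adjusted p = 0.00677) and Trgv1 by -1.68 (SE 0.43, adjusted p = 0.0208) on the log2 scale. Trgj4 gave -0.69 (adjusted p = 0.193) and Trgj2 -1.31 (adjusted p = 0.122) and did not pass. Of the gamma calls, Trgc2 and Trgv2 passed in all 12 alternatives, Trgc4 missed without azacytidine replicate 1 (adjusted p = 0.0713) and Trgv1 missed without CTRL2, without azacytidine replicate 1 and without azacytidine replicate 2 (adjusted p up to 0.103).

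Trav16n averaged 0.955 ± 0.335 CPM with azacytidine and 4.28 ± 0.274 CPM with DMSO, a log2 fold change of -2.15 (SE 0.43, adjusted p = 0.00633). Trav8n-2 averaged 1.17 ± 0.365 CPM with azacytidine and 4.03 ± 0.648 CPM with DMSO, a log2 fold change of -1.77 (SE 0.41, adjusted p = 0.0135). Both calls were lost without azacytidine replicate 1 (adjusted p = 0.0587 and 0.0983). For Trav18, 1 read with azacytidine faced 48 reads with DMSO, a ratio per normalised read of 0.0259 (exact 95% counting interval 0.000644 to 0.152), and the test gave an adjusted p of 0.00587. Trav17 and Trav19 gave log2 fold changes of -1.94 (adjusted p = 0.0911) and -2.17 (adjusted p = 0.0604). Without CTRL1, there were 18 lower calls, and these include Trgc1, Trgv4, Trbc1 and Trbv13-2, whose DMSO reads stand almost wholly in CTRL2. Without CTRL2 there were 6 lower and 3 higher calls.

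Decitabine at 0.2 µM against DMSO gave 0 calls among the 64 members, where 12.4% of all 19123 tested genes were called higher, 4.30% lower and 16.7% in either direction. At an unadjusted p under 0.05 there were 4 members, Trac, Trav19, Trav13n-4 and Trgv2, and DESeq2 called 1 member, Trac, higher. The median log2 fold change was -0.27, beside 0.04 over all genes, and its sign too rests on CTRL2, without which it was 0.56 with 10 of 65 members below 0. Groups did not overlap in 8 of 64 members, 12.5%, where the figure over all genes was 58.8%. Trgc2 averaged 148 ± 57.2 CPM with decitabine and 207 ± 9.22 CPM with DMSO (SD, n = 2 each), a log2 fold change of -0.48 (SE 0.23, adjusted p = 0.204). Trgv2 gave -0.57 (95% interval -1.08 to -0.05, adjusted p = 0.130). Without decitabine replicate 1, Trgc2 (log2 fold change -0.98) and Trgv2 (-1.02) were called lower, at adjusted p = 0.0140 and 0.0171. Trgc4 gave 0.20 (adjusted p = 0.590), so the 3 decitabine means of Trgc2, Trgv2 and Trgc4 were not all on 1 side of DMSO.

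**Figure D4:**
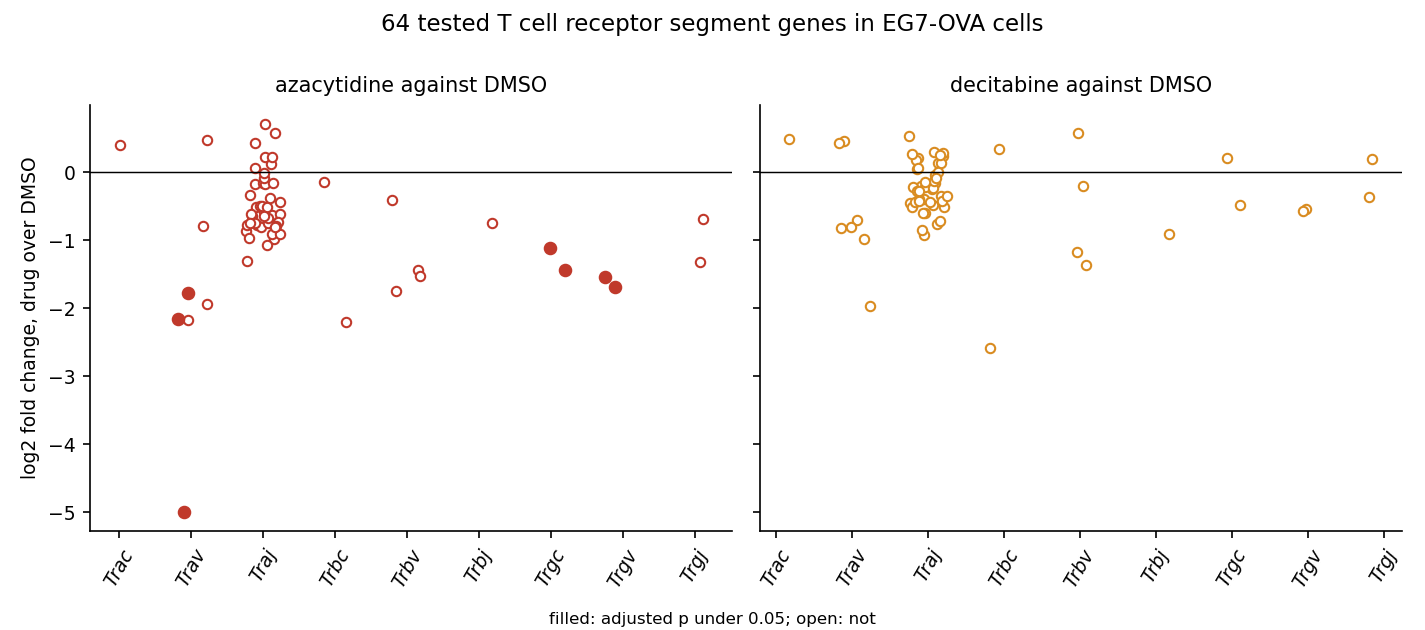
Log2 fold change of the 64 tested members (vertical axis) by segment class, azacytidine against DMSO on the left and decitabine against DMSO on the right; filled points have an adjusted p under 0.05. The 7 filled points all lie below 0 with azacytidine, and no point is filled with decitabine.

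Azacytidine and decitabine are close analogues that differ in the sugar, ribose in azacytidine and deoxyribose in decitabine, and were given at different doses, 1.5 µM and 0.2 µM. Their values therefore stand side by side and make no comparison at a matched dose. Setting the azacytidine libraries against the decitabine libraries, 1 pair of compounds, gave 0 calls among the 64 members and 0 of all 19123 genes (0.00% in each direction), with 8 members at an unadjusted p under 0.05 and 3 members called lower by DESeq2 (Trgc2, Trgc4 and Trgv2). Trgc4 averaged 31.1 ± 3.00 CPM with azacytidine and 77.2 ± 23.0 CPM with decitabine (SD, n = 2 each), a log2 fold change of -1.31 (95% interval -1.81 to -0.81, adjusted p = 0.159). Trgc2 gave -0.95 (95% interval -1.48 to -0.42, adjusted p = 0.282). Trav13n-4 gave 0.02 (95% interval -0.38 to 0.42) and Trac -0.10 (95% interval -0.45 to 0.26), intervals that exclude a 2-fold difference in either direction.

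In the EL4 tumours the alpha, beta and delta segments were all listed at 0. All 259 members without a read include 191 alpha, 53 beta and 11 delta members and 4 gamma members, and the 11 members with reads are all gamma genes. The EL4 table also holds locus-wide entries that the EG7 table lacks. Of these Tcrd is listed at 0, and Tcrg had 25 and 23 reads in P3 and 12 and 19 reads in P0. Tcra had 27253 and 21355 reads in P3 tumours and 12234 and 14739 reads in P0 tumours, and Tcrb had 33428 and 36469 reads in P3 and 17212 and 18888 reads in P0. All 191 alpha and all 53 beta members lie inside the RefSeq spans of Tcra and Tcrb. All 15 gamma members likewise lie inside the span of Tcrg, yet 11 of them had reads. Why the alpha and beta segments are listed at 0 was not tested. Beside the reads of Tcra and Tcrb, their zeros are not taken as their level, and which V gene these tumours use was not analysed here. Tcra averaged 1071 ± 190 CPM in P3 and 583 ± 5.20 CPM in P0 (SD, n = 2 each), a log2 fold change of 0.88 (SE 0.16, adjusted p = 0.0110). Tcrb averaged 1539 ± 86.3 CPM in P3 and 783 ± 44.7 CPM in P0, a log2 fold change of 0.98 (SE 0.13, adjusted p = 0.00524). The locus-wide immunoglobulin entries lay in the same direction: Igh stood at 889 and 1050 CPM in P3 and 244 and 333 CPM in P0, and Igk at 8641 and 6116 CPM in P3 and 3179 and 3124 CPM in P0. Summed CPM of 10 B cell markers was 29.5 and 29.5 in P3 and 163 and 349 in P0, with 6 and 7 detected in P3, 7 and 7 in P0, and Ighm, Igkc and Ighd listed at 0 in all 4. The same sum ran from 353 CPM in CTRL1 to 457 CPM in decitabine replicate 1 among the cultured EG7-OVA libraries, so it is no measure of B cells alone. The part of B cells in the Tcra and Tcrb differences was not tested.

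The same 2 gamma groups as in EG7-OVA cells were read in the tumours, and the Trgc1 group besides. Trgc2 had 5910 and 4597 reads in P3 and 5092 and 5690 reads in P0, and Trgv2 had 1584 and 1158 reads in P3 and 1394 and 1522 reads in P0. These groups overlapped, and the log2 fold changes were -0.01 (95% interval -0.37 to 0.34, adjusted p = 0.947) for Trgc2 and -0.07 (95% interval -0.48 to 0.35, adjusted p = 0.771) for Trgv2. Trgc4 had 1935 and 1829 reads in P3 and 1212 and 1501 reads in P0. Trgc1 had 2573 and 1668 reads in P3 and 1032 and 1312 reads in P0. Trgv4 had 545 and 345 reads in P3 and 311 and 355 reads in P0, which in CPM is higher in both P3 tumours by a margin that did not pass the test (adjusted p = 0.191). Trgv2 held 67.6% and 69.5% of all Trgv reads in P3 and 76.8% and 76.8% in P0. Per kb of exon the constant genes ran in P3 in the order Trgc2 (253 CPM per kb), Trgc1 (101), Trgc4 (84.2) and Trgc3 (0.509), where the P3 libraries of Trgc1 and Trgc4 overlapped. In P0 the order was Trgc2 (256 CPM per kb), Trgc4 (59.4), Trgc1 (54.7) and Trgc3 (0.360), and the P0 libraries of Trgc4 and Trgc1 did not overlap.

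In EL4, 19993 genes passed the filter and 9 of them are members. Of these, 4 were called higher in P3 and 0 lower, where 18.8% of all tested genes were called higher, 19.9% lower and 38.7% in either direction. Groups did not overlap in 6 of 9 members, 66.7%, where the figure over all genes was 76.1%. Trgc1 averaged 93.5 ± 28.7 CPM in P3 and 50.5 ± 2.37 CPM in P0 (SD, n = 2 each), a log2 fold change of 0.89 (SE 0.21, adjusted p = 0.0250). Trgc4 averaged 82.9 ± 3.75 CPM in P3 and 58.6 ± 1.66 CPM in P0, a log2 fold change of 0.50 (SE 0.09, adjusted p = 0.0113). Trgj1 and Trgv1 rose by 1.03 (adjusted p = 0.0355) and 0.86 (adjusted p = 0.0468) on the log2 scale. Trgj4 (258 and 210 reads in P3, 126 and 197 in P0) and Trgj2 (109 and 52 reads in P3, 36 and 76 in P0) did not pass. Without P0 replicate 1, and likewise without P0 replicate 2, 0 members were called, and without P3 replicate 2 there were 7 calls. Trgj1 was also lost with DESeq2 and with a replicate block, and Trgv1 with no filter on low counts and with a replicate block. Trgv4 overlaps the annotated gene Gm31887, and strand-specific counting is not given in the sources used here.

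**Figure D5:**
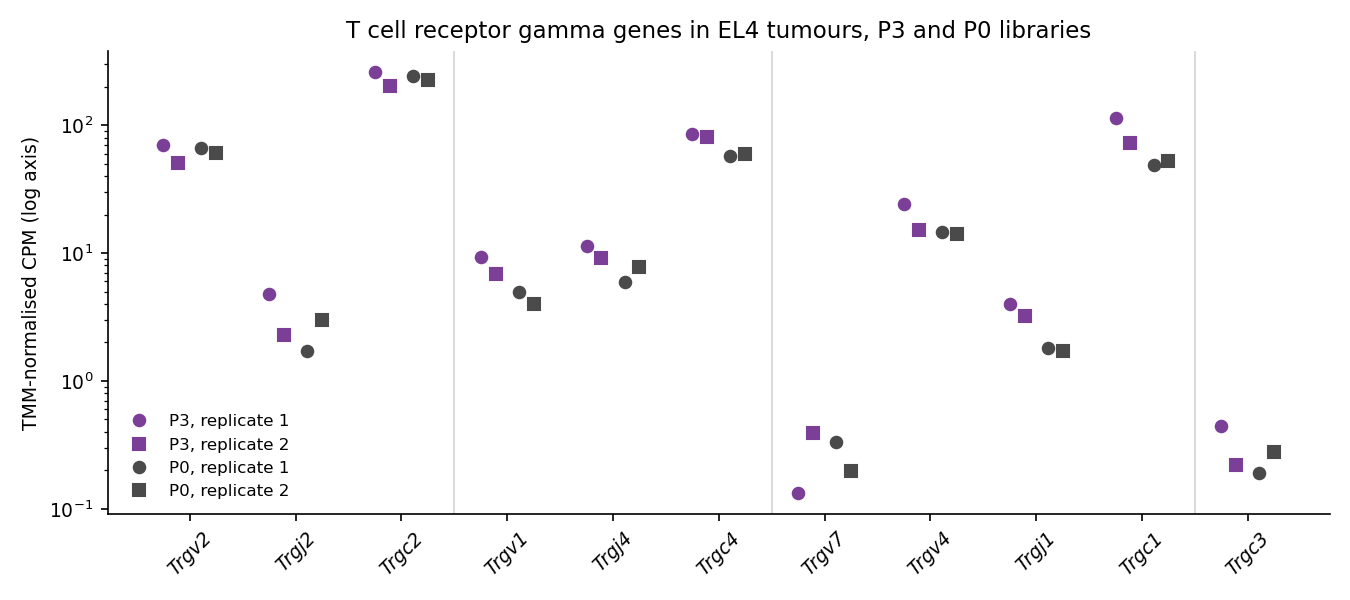
Level of the 11 gamma members with reads in EL4 tumours, TMM-normalised CPM on a log axis, P3 (purple) left of P0 (grey), 1 point per library; vertical lines separate genes by their position in the locus. Trgc1, Trgc4, Trgj1 and Trgv1 lie higher in both P3 libraries, and Trgc2 and Trgv2 overlap.

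Cell types other than the lymphoma contribute to a tumour sample, and fewer cells of a type and less RNA per cell cannot be told apart in bulk RNA. Summed CPM of 10 macrophage markers was 344 and 337 in P3 and 1348 and 1672 in P0, with a read of 10 of 10 in each. Summed CPM of 8 markers of gamma delta T cells was 491 and 331 in P3 and 156 and 152 in P0, with 6 of 8 detected and Trdc and Il17a listed at 0 in all 4. Trdc is a delta member, and all of these are listed at 0, so its zero is not taken as its level. For 7 T cell markers the sum was 1272 and 1390 CPM in P3 and 1928 and 1709 CPM in P0. Their part in the gamma gene differences was not tested. In EG7-OVA cells the coreceptor genes Cd8a and Cd8b1 had at most 0.0653 CPM in any library, and the 7 T cell markers summed to between 1169 and 1577 CPM.

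The partners of the receptor chains were read from fixed lists, and their counts stand beside 20.3% of all tested genes called in either direction with azacytidine, 16.7% with decitabine and 38.7% in P3 against P0. Of the 4 CD3 and zeta genes that carry the receptor to the surface, 1, Cd3g, was called higher with azacytidine (210 CPM against 109 CPM with DMSO, log2 fold change 0.95, adjusted p = 0.00232) and with decitabine (215 CPM against 109 CPM, 0.98, adjusted p = 0.00233), and 0 were called in P3 against P0. Of 10 coreceptors and proximal signalling genes, 8 were tested in EG7-OVA cells. With azacytidine Cd5 and Cd6 were called higher, and with decitabine Cd2, Cd5 and Cd6. In P3 tumours Cd4 and Cd5 were higher and Cd6, Cd8a, Cd8b1 and Lck lower than in P0, of 10 tested. Of 11 transcription factors that bind T cell receptor enhancers or set T cell identity, Bcl11b and Gata3 were called higher and Lef1 and Myb lower with azacytidine, and Bcl11b higher and Lef1 and Myb lower with decitabine. Myb averaged 90.8 CPM with azacytidine and 207 CPM with DMSO (log2 fold change -1.19, adjusted p = 0.000950), and 108 CPM with decitabine (-0.93, adjusted p = 0.00403). In P3 Gata3 was higher and Ets1, Ikzf1, Lef1 and Myb lower than in P0. The share of the 11 factors called was 36.4% with azacytidine, 27.3% with decitabine and 45.5% in P3. A list of 11 is too short to set any of these apart from the share over all genes given above. Of the recombination genes Rag1, Rag2, Dntt and Ptcra, 2 were tested in the tumours and both, Rag1 and Dntt, were lower in P3, Rag1 with no read there; 1 was tested in EG7-OVA cells and was not called.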

How the data were processed

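RNA-seq libraries of EL4 tumours and EG7-OVA cells were read from 2 gene tables. Per the submitters' processing notes the tools were fastp, Trim Galore, STAR and featureCounts and the builds GRCh38 and mm10; which tool made which table, its version and its strand setting are not given in the sources used. The EL4 table holds read counts per gene as deposited by the authors. The EG7 table is nearly all whole numbers with 145 values that are not, so its values were treated as estimated counts as deposited by the authors and rounded; no member was affected. No column of another sample was present. The EG7 DMSO columns are named CTRL1 and CTRL2 and match the 2 DMSO samples as a group, without a number.

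Members were matched to GENCODE vM21 (mm10), 258 of 270 by symbol and 12 by a RefSeq synonym. Values per kb use the exon length there, which may differ from the annotation behind the deposited counts. Genes were tested with edgeR 4.0.16 in R 4.3.3 (filterByExpr, TMM scaling, quasi-likelihood test, Benjamini-Hochberg adjustment over all genes tested, threshold 0.05), with all 3 EG7 groups in 1 fit and both EL4 groups in another; the tables were fitted apart. CPM is the count scaled by the TMM-adjusted library size, as edgeR gives it. Total counts were 21621580 and 22899073 in P3, 21926990 and 25328708 in P0, 15690747 and 16515050 with azacytidine, 19414060 and 18341509 with decitabine, and 21048979 and 19116049 with DMSO. Shares have 95% Wilson intervals, which cover counting error only. Coding sequences were aligned with Biopython 1.88. Alternatives were DESeq2 1.42.0, limma-voom 3.58.1, other scaling, other filters, a replicate block and leaving out each library. The fits were also run on simulated data, with changed genes drawn only from well-read genes. That run therefore does not cover members with few reads.

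The text names all constant genes with a read, up to 3 of the most abundant genes of a class with 10 or more reads, members called in any comparison, members at the threshold of 10 reads, and genes of the fixed pathway lists. Genes added to these after their values were seen are Trav17, Trav19, Traj45, Traj46, Traj47, Traj48, Trbv31 and Trdv1. Members and lists were chosen with earlier results of these data known.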

Additional observations from a re-analysis of the deposited data

How the results depend on the processing

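Of the 4 calls in P3 against P0, 2 were left with a replicate block, and leaving out 1 library gave 0 to 7. With azacytidine against DMSO the count was 19, all lower, with no filter on low counts and 3 to 18 with 1 library left out; other settings gave 6 to 8. Decitabine against DMSO gave 1 call by DESeq2, 8 with no filter and 0 to 6 with 1 library left out. Azacytidine against decitabine gave 3 by DESeq2, 5 with no filter and 0 with any library left out. Replicate numbers of 2 libraries a group share only a number: deviations of same-numbered libraries correlated at -0.09 (P3 and P0), -0.23 (azacytidine and DMSO), -0.17 (decitabine and DMSO) and 0.25 (azacytidine and decitabine). The replicate block gave 7, 0 and 0 calls in the 3 EG7-OVA comparisons, and a crossed replicate block, chosen after seeing the data, 8 with azacytidine and 0 with decitabine against DMSO.

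Log2 fold changes changed sign only in genes that were not called in the main fit. Of these, Trbc1 was called against DMSO with both drugs when no filter on low counts was used. For P3 against P0 Trgc2 gave 0.00287 under a stricter filter and -0.20 to 0.15 with 1 library left out, and Trgv2 -0.30 to 0.14. With azacytidine, limma-voom gave 0.47 for Trbc1, 0.67 for Trbc2 and 0.29 for Trbv15, the crossed block 0.57 for Trbc2 and 0.22 for Trbv15, and leaving out 1 library -4.28 to 5.80 for Trbc1, -1.38 to 2.95 for Trbc2 and -1.34 to 2.22 for Trbv15. With decitabine, limma-voom gave 0.68 for Trbc1, and leaving out 1 library -3.58 to 5.42 for Trbc1, -0.58 to 3.44 for Trbc2, -0.31 to 3.20 for Trbv15 and -0.18 to 0.46 for Trgc4. Apart from the libraries left out, the cause was not tested. The median log2 fold change of the members tested ran from -1.35 to 0.26 with azacytidine and from -0.85 to 0.56 with decitabine when 1 library was left out, positive only without CTRL2; this measure was added after seeing the data. Members described numbered 118 with 5 reads and 80 with 20 reads in EG7-OVA cells and 11 with either in EL4. The share of Trgv2 in EL4 averaged 72.7% and was 71.3% to 74.3% with 1 library left out; no share could be given for Trav or Trbv in EL4, whose segments are listed at 0. Depth limits members with under 10 reads and the Trbj segments; 2 libraries a group limit every test.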
